A study of Rattus norvegicus with 8 samples.

Results

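Mitochondria keep a small genome of their own, and a handful of the proteins that make ATP are still encoded there. The 6 genes described here are the mitochondrial genes for complexes III, IV and V of oxidative phosphorylation. Complex III is represented by Mt-cyb (ENSRNOG00000031766), complex IV (cytochrome c oxidase) by Mt-co1 (ENSRNOG00000034234), Mt-co2 (ENSRNOG00000030371) and Mt-co3 (ENSRNOG00000030700), and complex V (ATP synthase) by Mt-atp6 (ENSRNOG00000031979) and Mt-atp8 (ENSRNOG00000033299). They were taken by Ensembl identifier from a table of 32883 rat genes, in which all 6 were found, and all 6 had enough counts to be among the 4086 genes tested. The symbols were given with the identifiers. The deposited table itself holds identifiers only, so the symbols could not be checked against it.

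The 8 libraries were made from lower spinal cord taken from rats of the outbred Sprague Dawley strain 23 days after a hemisection of the cord at T9, a level above the sampled tissue, which the series describes as intact. In 4 libraries the rats had been trained after the injury and in 4 they had not, so the injury was common to both groups. The sources used here do not give the kind of training, the age and sex of the rats, or how many animals each library represents, so p-values measure only the spread between these libraries, which may be technical. Libraries held 240895 to 453390 unique molecular identifiers (UMIs, random tags that let each captured transcript be counted once) in the untrained group and 192472 to 400934 in the trained group.

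Complex III passes electrons from ubiquinol to cytochrome c, complex IV passes them on to oxygen, both pump protons across the inner membrane, and complex V uses the returning protons to make ATP. Neurons and their axons draw much of their ATP from this chain. The mitochondrial subunits are made from long transcripts that are cut into single messenger RNAs, with the reading frames of Mt-atp8 and Mt-atp6 overlapping on one of them. The other subunits of the same complexes are encoded in the nucleus and imported.

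For none of the 6 genes did trained cords differ from untrained ones past the threshold (edgeR quasi-likelihood test with Benjamini-Hochberg adjustment over 4086 genes, 0 of 6, adjusted p = 0.99998 for each). Over all genes 0% passed as well, with 52 of 4086 at an unadjusted p under 0.05 and none of the 6 among them. DESeq2 and limma-voom also gave 0 genes, with 27 and 57 at an unadjusted p under 0.05. All 6 fitted fold changes were above 0, from a log2 fold change of 0.10 for Mt-co3 to 0.51 for Mt-cyb. Their median was 0.25 against 0.01 over all genes tested, a value that the scaling keeps near 0. With signs ignored, the median was 0.15 over all genes and still 0.25 for the 6. The 2 genes with the largest values, Mt-cyb and Mt-atp6, were those whose counts lay closest to an upper limit of the assay, described next.

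The counts of the 6 genes spanned a wide range. Mean counts over the 8 libraries were 3655 UMIs for Mt-cyb, 3518 for Mt-atp6, 1898 for Mt-co2, 1540 for Mt-co1, 487 for Mt-co3 and 45.8 for Mt-atp8. Among all genes these ranked 3, 4, 10, 14, 75 and 1257. CEL-Seq2 tags transcripts near the 3′ end, so the counts are per captured molecule and were not divided by gene length. The order is therefore one of deposited counts, not of levels per length. In it Mt-cyb and Mt-atp6 could not be told apart beyond the spread of the libraries: the count of Mt-cyb was between 95.6% and 112% of that of Mt-atp6. It was lower in trained replicate 3 (3311 against 3464 UMIs) and nearly equal in untrained replicate 3 (3641 against 3642). On counts corrected for the limit, as described below, the ratio ran from 88.4% to 139%. Mt-co2 exceeded Mt-co1 in every library, but stood at 100.1% of it in untrained replicate 1. The steps down to Mt-co3 and to Mt-atp8 were larger than the spread of the libraries.

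No count in the table exceeded 4049 UMIs, just under the number of different tags that 6 bases can form. The sources used here do not give the length of the tag. A gene whose molecules use up most of the tags can no longer be counted in proportion to its abundance. Mt-cyb counts stood at 80.8% to 96.3% of that number and Mt-atp6 counts at 75.5% to 92.6%. Library totals differed 2.36-fold between the shallowest and the deepest library, but Mt-cyb counts differed only 1.19-fold and Mt-atp6 counts 1.23-fold. The slope of a gene's log2 count on the log2 of the library total, near 1 for a gene that keeps a fixed share, was 0.16 for Mt-cyb and 0.14 for Mt-atp6. It was 0.66 for Mt-co1, 0.48 for Mt-co2 and 0.93 for Mt-co3. Among 6 other genes of like abundance to each (within 1.5-fold), the median slope was 0.21 for both Mt-cyb and Mt-atp6. For genes like Mt-co1, Mt-co2 and Mt-co3 in abundance the medians were 0.74, 0.63 and 1. Mt-atp8, far below the limit, had a slope of 0.61 on 17 to 76 UMIs, where the 974 genes of like abundance (within 1.5-fold) had a median of 1.22.

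**Figure D1:**
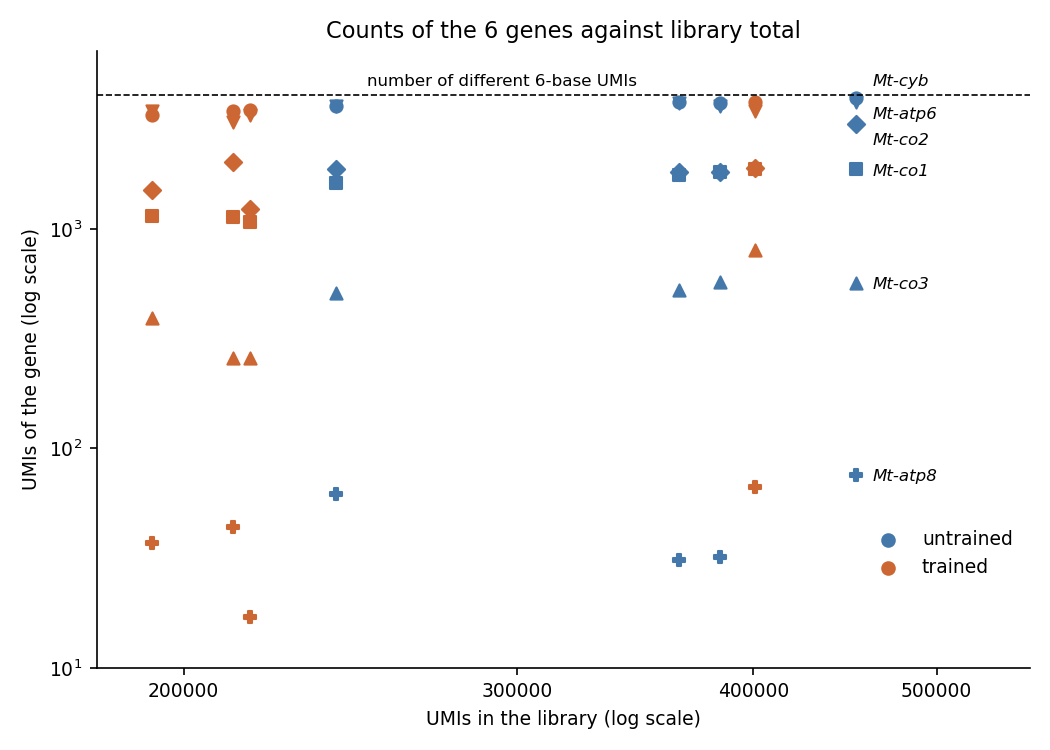
UMIs of each of the 6 genes (vertical axis, log scale) against the total of the library (horizontal axis, log scale), 1 point per gene and library, with the dashed line at the number of different 6-base tags. Mt-cyb and Mt-atp6 stay between 3092 and 3944 across the 2.36-fold range of totals, while Mt-co3 runs from 258 to 804.

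The number of molecules behind a count can be estimated from the chance that 2 molecules carry the same tag, on the assumption of a 6-base tag with all sequences equally used. On that basis the deposited counts understated Mt-cyb 2.04-fold to 3.42-fold and Mt-atp6 1.86-fold to 2.81-fold. Mt-co2 was understated 1.19-fold to 1.80-fold, Mt-co1 1.16-fold to 1.34-fold, Mt-co3 1.03-fold to 1.11-fold and Mt-atp8 by at most 1.01-fold. The count of Mt-cyb in untrained replicate 4, 3944 UMIs, corresponded to 13492 molecules (95% interval 12853 to 14131, counting error only). Its count in trained replicate 4, 3464 UMIs, corresponded to 7655 (7361 to 7949). With corrected counts the slopes on the library total rose to 0.63 for Mt-cyb and 0.42 for Mt-atp6.

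**Figure D2:**
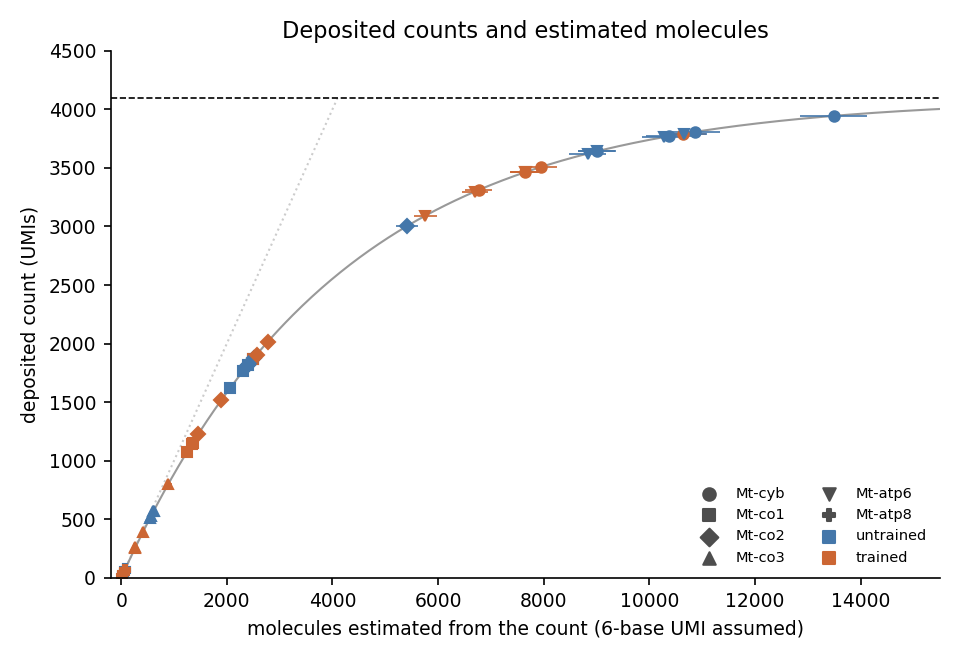
Deposited UMIs (vertical axis) against the molecules estimated from them (horizontal axis), 1 point per gene and library, bars giving the 95% interval for counting error. The points lie on the curve because the estimate is computed from it; the dotted line is 1 UMI per molecule and the dashed line is the number of different 6-base tags. Mt-cyb and Mt-atp6 occupy the flat part, and Mt-co3 and Mt-atp8 the straight part.

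Mt-cyb encodes cytochrome b, the subunit of complex III that carries the sites of ubiquinol oxidation. In order of replicate 1 to 4, its counts were 3770, 3808, 3641 and 3944 UMIs in untrained and 3791, 3508, 3311 and 3464 UMIs in trained libraries. Scaled to a common library total (CPM, with library sizes adjusted by the trimmed mean of M values), these became 9872, 10834, 17335 and 8756 CPM in untrained and 9521, 18050, 20289 and 18633 CPM in trained libraries. The groups overlapped, with trained replicate 1 among the low libraries and untrained replicate 3 among the high ones. In CPM the groups overlapped for all 6 genes (0 of 6 without overlap), where 1.1% of all genes tested had groups that did not overlap. The log2 fold change was 0.51 ± 0.29 (SE, n = 4 each, edgeR adjusted p = 0.99998), with a 95% interval from -0.11 to 1.12. Between same-numbered libraries the trained one differed by -0.05, 0.74, 0.23 and 1.09 on the log2 CPM scale. The untrained total exceeded the trained one in the same pairs by -0.06, 0.75, 0.32 and 1.09 on the log2 scale. The scaled difference of this gene therefore had nearly the size of the depth difference in each pair. On corrected counts it was 0.20 ± 0.27 (SE, edgeR adjusted p = 0.99939), and 2 of 4 pairs were higher and 2 lower.

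Mt-atp6 encodes subunit a of ATP synthase, which forms the path of protons through the membrane with the rotating ring. Untrained libraries held 3622, 3763, 3642 and 3792 UMIs and trained libraries 3467, 3298, 3464 and 3092. All 4 trained counts lay below the 4 untrained ones before scaling, in libraries of which 3 were also the shallowest of the 8. The share of all genes whose unscaled counts did not overlap was not determined. After scaling the direction was the opposite, with 9484, 10706, 17340 and 8418 CPM in untrained and 8707, 16969, 21226 and 16632 CPM in trained libraries, and the groups overlapped. The log2 fold change was 0.47 ± 0.30 (SE, n = 4 each, edgeR adjusted p = 0.99998) and 0.15 ± 0.31 on corrected counts (adjusted p = 0.99939). Trained libraries were higher in 3 of 4 pairs, with differences of -0.12, 0.66, 0.29 and 0.98 on the log2 CPM scale. These differences had the same order over the 4 pairs as those of the library totals, and nearly their size.

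Mt-co1 encodes the catalytic subunit of cytochrome c oxidase, which binds the haem and copper centre where oxygen is reduced. Untrained libraries held 1818, 1768, 1617 and 1872 UMIs and trained libraries 1872, 1076, 1153 and 1140. In CPM these were 4760, 5030, 7699 and 4156 in untrained and 4702, 5536, 7065 and 6132 in trained libraries. Replicate 3 was the highest library in both groups, and the groups overlapped throughout. The log2 fold change was 0.12 ± 0.24 (SE, n = 4 each, edgeR adjusted p = 0.99998) and 0.0034 ± 0.24 on corrected counts (adjusted p = 0.99939). On deposited counts the 95% interval ran from a 0.76-fold to a 1.54-fold level in trained cords, and on corrected counts from 0.71-fold to 1.42-fold.

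Mt-co2 encodes the subunit with the copper site that takes electrons from cytochrome c. Untrained libraries held 1820, 1821, 1874 and 3005 UMIs and trained libraries 1905, 1229, 1514 and 2014. These were 4766, 5181, 8922 and 6671 CPM in untrained and 4784, 6324, 9277 and 10834 CPM in trained libraries. The trained library was the higher one of each of the 4 pairs, with log2 differences of 0.01, 0.29, 0.06 and 0.70. All 4 pairs went in one direction for 12% of all genes tested. The log2 fold change was 0.29 ± 0.28 (SE, n = 4 each, edgeR adjusted p = 0.99998). On corrected counts it was 0.13 ± 0.31 (adjusted p = 0.99939), and 3 of 4 pairs were higher.

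Mt-co3 encodes the core subunit of complex IV that carries no redox centre. Untrained libraries held 571, 529, 511 and 567 UMIs and trained libraries 804, 259, 394 and 258. Scaled, the untrained libraries had 1495, 1505, 2433 and 1259 CPM and the trained ones 2019, 1333, 2414 and 1388 CPM, so that replicate 3 was again the highest of each group. The log2 fold change was 0.10 ± 0.25 (SE, n = 4 each, edgeR adjusted p = 0.99998), with a 95% interval from 0.74-fold to 1.54-fold. This gene had 2 pairs higher and 2 lower.

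Mt-atp8 encodes a small membrane subunit of ATP synthase. Untrained libraries held 32, 31, 62 and 76 UMIs and trained libraries 67, 17, 37 and 44. At these counts counting error alone is wide: 17 UMIs have an exact 95% Poisson interval of 9.90 to 27.2, and 76 UMIs one of 59.9 to 95.1. In CPM the untrained libraries had 83.8, 88.2, 295 and 169 and the trained ones 168, 87.5, 227 and 237. Replicates 1 and 2 were the low libraries of the untrained group and replicate 2 that of the trained group, and the groups overlapped. The log2 fold change was 0.21 ± 0.37 (SE, n = 4 each, edgeR adjusted p = 0.99998), and 2 of 4 pairs were higher. The frames of Mt-atp8 and Mt-atp6 overlap on a single messenger RNA, which CEL-Seq2 tags near its 3′ end. The Mt-atp8 count is therefore not the level of a separate transcript. The sources used here do not say how reads in the overlap were assigned, so the split of counts between the pair is uncertain. The assignment of any reads shared with nuclear copies of mitochondrial sequence is likewise unknown.

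**Figure D3:**
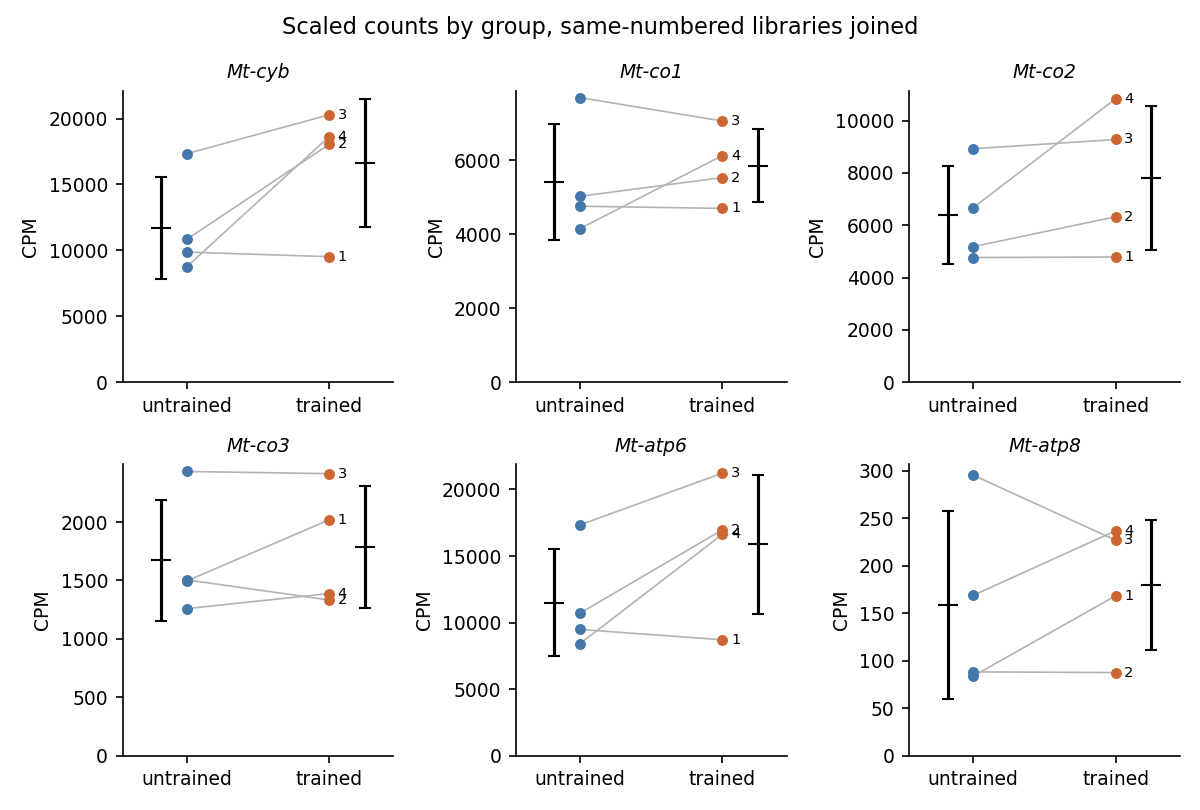
CPM of each gene in the 4 untrained and 4 trained libraries (vertical axis from 0), with grey lines joining libraries of the same replicate number, printed at the right, and black bars for the mean and SD of each group. The groups overlap for all 6 genes, and replicate 3 is the highest untrained library for every gene.

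Each group has libraries titled 1 to 4, and same-numbered libraries deviated together from their group means, so the comparison was also made with the number as a block. Again 0 of the 6 genes passed (edgeR with the replicate block, adjusted p = 0.99356 for each), against 0.0489% of all genes. Standard errors fell to between 0.13 for Mt-co3 and 0.21 for Mt-cyb. At an unadjusted p under 0.05 there were 2 of the 6, Mt-cyb at a log2 fold change of 0.50 (edgeR unadjusted p = 0.0313) and Mt-atp6 at 0.45 (unadjusted p = 0.0437), among 171 of all genes. On corrected counts with the block these were 0.20 (unadjusted p = 0.247) and 0.13 (unadjusted p = 0.453), and 0 of the 6 passed, against 0.0242% of all genes. With the block on deposited counts, both a 2-fold rise and a 2-fold fall lay outside the 95% interval of all 6 genes. The same held for 89.4% of all genes. Without the block this held for 4 of the 6 and 80.0% of all genes, and the intervals of Mt-cyb and Mt-atp6 reached 2.18-fold and 2.15-fold. All these intervals are of deposited counts. For Mt-cyb and Mt-atp6, whose counts lie near the limit, they do not bound the change in molecules. Mt-co2 and Mt-co1 were understated by up to 1.80-fold and 1.34-fold, so the limit also bears on their intervals. With the block the narrowest was that of Mt-co3, 0.884-fold to 1.304-fold, and that of Mt-co1 ran from 0.87-fold to 1.40-fold. The median log2 fold change of the 6 was 0.28 with the block and 0.12 with the block on corrected counts, beside 0.01 over all genes in both. With signs ignored, the median over all genes was 0.15 in both, and those of the 6 stayed at 0.28 and 0.12. Without untrained replicate 3, the shallowest untrained library, the 6 fold changes of the comparison without the block were at their highest, 0.33 for Mt-co1 and Mt-co3, 0.49 for Mt-co2, 0.63 for Mt-atp8, 0.74 for Mt-atp6 and 0.76 for Mt-cyb on the log2 scale, and none passed the threshold.

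**Figure D4:**
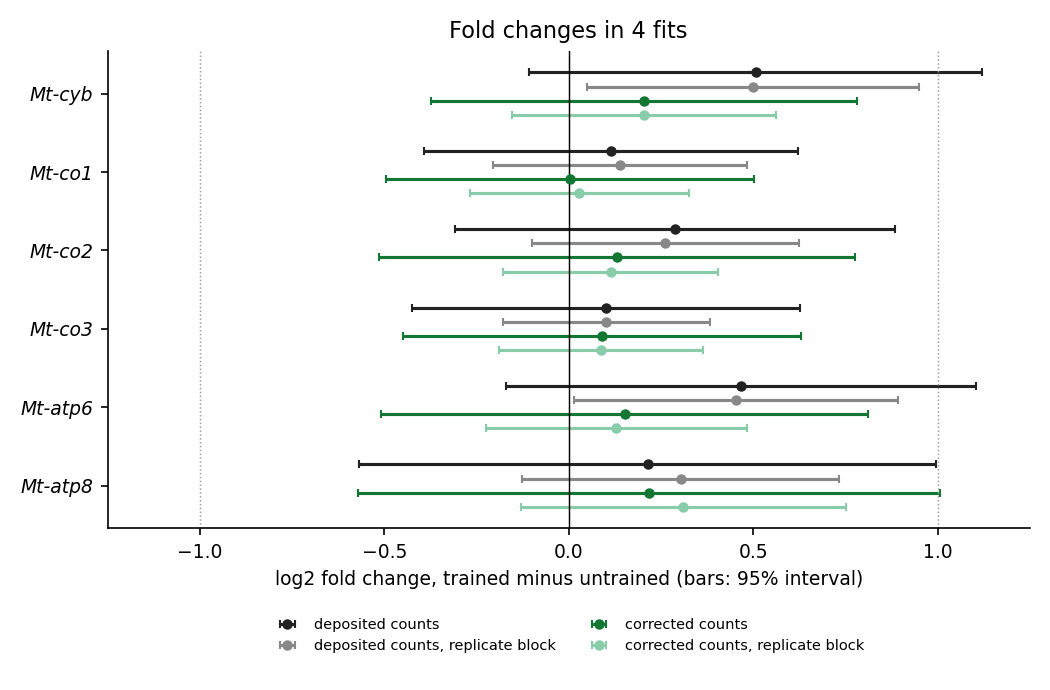
Log2 fold changes of the 6 genes, trained minus untrained (horizontal axis), with 95% intervals, in edgeR fits on deposited and corrected counts with and without the replicate block; dotted lines mark a 2-fold change. Without the block, correction moved Mt-cyb from 0.51 to 0.20 and Mt-atp6 from 0.47 to 0.15. It moved Mt-co2 from 0.29 to 0.13 and Mt-co1 from 0.12 to 0.0034, and left Mt-co3 and Mt-atp8 nearly where they were.

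The replicate number itself was tested over the same 8 libraries, with training in the model. Of the 6 genes 3 differed between numbers: Mt-atp8 (edgeR adjusted p = 0.00504), Mt-co3 (adjusted p = 0.0102) and Mt-co2 (adjusted p = 0.0251). Over all genes 16% did. Mean values of Mt-atp8 were 126, 87.8, 261 and 203 CPM for numbers 1 to 4, a 2.97-fold range. Those of Mt-co3 were 1757, 1419, 2424 and 1323 CPM, and those of Mt-co2 were 4775, 5752, 9100 and 8752 CPM. Mt-cyb, Mt-co1 and Mt-atp6 did not pass (adjusted p of 0.149, 0.152 and 0.0764). On corrected counts, where 15.7% of all genes passed, Mt-atp6 passed as well (adjusted p = 0.0202). The libraries numbered 3 include the shallowest of each group, and they had the highest mean of all 6 genes in deposited CPM. On corrected counts they kept the highest mean for 5 of the 6, and number 4 was higher for Mt-co2. What the number stands for is not given in the labels, and its part in these differences was not tested. The call of Mt-co2 ended without untrained replicate 1 or 2 or trained replicate 1 or 2 (edgeR adjusted p of 0.0527, 0.142, 0.0940 and 0.0961), and that of Mt-co3 without untrained replicate 3 (0.0627).

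Ratios of 2 genes within a library do not depend on how libraries are scaled, although a ratio with a gene near the limit can still move with depth. The count of Mt-co2 was 100.1%, 103%, 116% and 161% of that of Mt-co1 in untrained libraries 1 to 4, and 102%, 114%, 131% and 177% in trained ones. Same-numbered libraries were alike in it, differing by a median of 0.14 and at most 0.18 on the log2 scale. Libraries of the same group but different numbers differed by a median of 0.40 and at most 0.80. Replicate 4 had the highest ratio in both groups. The untrained mean was 120% ± 28.0 and the trained mean 131% ± 32.8 (SD, n = 4 each), a difference smaller than either SD. Within pairs the trained library had the higher ratio in all 4, by 0.02, 0.15, 0.18 and 0.14 on the log2 scale. In CPM, 12% of all genes tested had all 4 pairs in one direction, and that share was not determined for ratios. On corrected counts the means were 136% ± 54.8 and 142% ± 46.5, and 3 of 4 pairs were higher, with differences of 0.03, 0.17, 0.20 and -0.06. The paired difference was not tested, and with 4 pairs an exact test cannot go below 0.125.

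The ratio of Mt-co3 to Mt-co1 had another pattern. It was 31.4%, 29.9%, 31.6% and 30.3% in untrained libraries and 42.9%, 24.1%, 34.2% and 22.6% in trained ones. The means, 30.8% ± 0.83 and 31.0% ± 9.50 (SD, n = 4 each), differed by less than either SD, and the trained libraries lay on both sides of the untrained ones. The SDs on corrected counts were 1.02 and 7.54 percentage points. The difference in spread was not tested. Same-numbered libraries differed in this ratio by a median of 0.37 and at most 0.45 on the log2 scale. Libraries of the same group but different numbers differed by a median of 0.08 and at most 0.92. That median pools the closely placed untrained libraries with the widely spread trained ones, so it does not describe the trained group. The medians for same-numbered and for same-group libraries were 0.07 and 0.05 for Mt-cyb to Mt-atp6, and 0.67 and 0.997 for Mt-atp8 to Mt-atp6.

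Mt-atp8 counts were 0.883%, 0.824%, 1.70% and 2.004% of Mt-atp6 counts in untrained libraries and 1.93%, 0.515%, 1.07% and 1.42% in trained ones. The groups overlapped, and the mean log2 ratio, trained minus untrained, was -0.18 (two-sided exact permutation test over 70 assignments, p = 0.771, where the smallest possible is 0.0286). On corrected counts the difference was 0.15 in the other direction (p = 0.771, exact permutation).

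**Figure D5:**
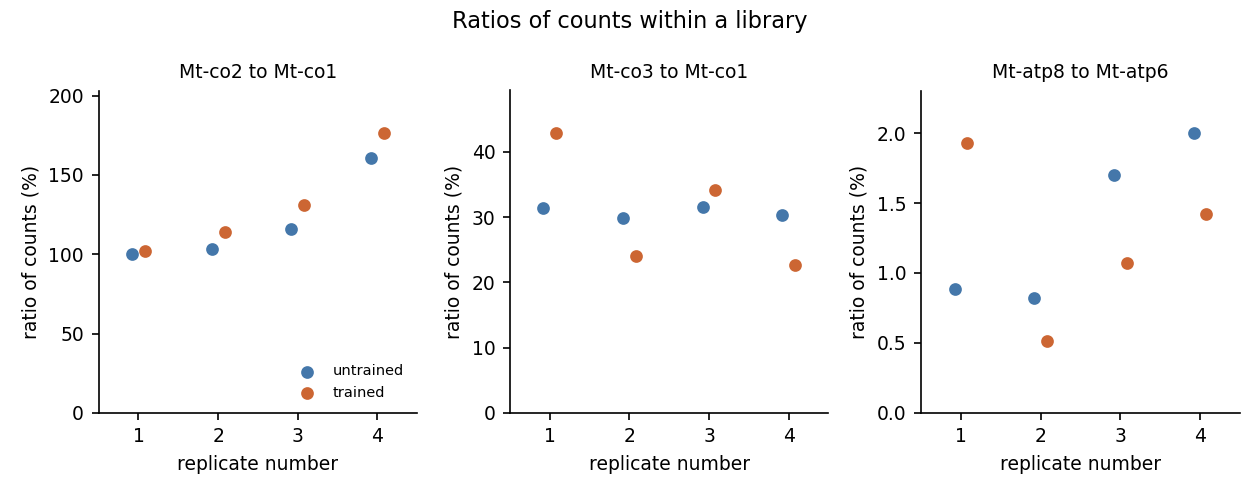
Counts of one gene as a percent of another in the same library (vertical axes from 0) by replicate number (horizontal axes), untrained in blue and trained in orange. The points of one number lie close together for Mt-co2 to Mt-co1, and the untrained points lie between 29.9% and 31.6% for Mt-co3 to Mt-co1 while the trained ones run from 22.6% to 42.9%.

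Together the 6 genes took 3.03%, 3.21%, 4.71% and 2.92% of the UMIs of untrained libraries and 2.97%, 4.33%, 5.13% and 4.72% of those of trained ones. The 4 libraries with the lowest totals, untrained replicate 3 and trained replicates 2 to 4, were the 4 with the highest shares. The untrained mean was 3.47% ± 0.84 and the trained mean 4.29% ± 0.94 (SD, n = 4 each). On corrected counts they were 6.39% ± 1.02 and 6.77% ± 1.055, a smaller gap on a higher level. The same 4 libraries kept the highest shares, 7.88% in untrained replicate 3 and 7.08%, 7.64% and 7.13% in trained replicates 2 to 4. The others lay between 5.24% and 6.15%. In bulk tissue, fewer cells of a type and less RNA per cell cannot be told apart, and these shares are of all captured transcripts of the cord.

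The genes most like the 6 across libraries were found from the Pearson correlation of log2 CPM with the mean of the 6 over the 8 libraries, among the other 4080 genes tested. ENSRNOG00000029971 had the highest value, 0.977, on counts of 933 to 1783 UMIs, followed by ENSRNOG00000037627 with 0.96 on 29 to 64 UMIs. The lowest were -0.985 for ENSRNOG00000001628, on 31 to 116 UMIs, and -0.951 for ENSRNOG00000006399, on only 3 to 20 UMIs. These are the extremes picked from 4080 genes over 8 libraries, and they were not tested. All 8 points share their library totals with the 6 genes, which bears on any gene near the limit, and the values describe these libraries only. Of the 6 themselves, Mt-co1 followed the mean of the other 5 most closely (0.921) and Mt-co3 least (0.518).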

How the data were processed

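The authors deposited one table of raw UMI counts for 32883 Ensembl genes in 8 libraries, without normalisation. Per the labels' protocols, cords were flash frozen and libraries made by CEL-Seq2, a 3′-end method, and run on an Illumina HiSeq1500. The submitters' processing notes name HISAT2 2.0.4, HTSeq 0.6.0 and Rnor_6.0. The UMI length and collapse step, any strand setting and the treatment of reads that overlap 2 genes are details the sources used here do not give. A count of 0 allows up to 6.62 CPM in the deepest library and 15.6 CPM in the shallowest (3 counts, counting error only).

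Genes were kept by filterByExpr (minimum count 10 at the median library size, 4 libraries) and scaled by TMM over the genes kept in edgeR 4.0.16 (R 4.3.3). The quasi-likelihood F test compared 4 trained with 4 untrained libraries, with adjusted p under 0.05 as the threshold; SEs are the absolute log2 fold change over the root of F. The replicate number was tested in the model with training. A prior count of 2 was used for log2 CPM. Corrected counts are the molecules expected to give the deposited count with 6-base UMIs, all equally used, rounded for the fits, with the filter and scaling run anew (4136 genes tested). The scripts were tested on simulated data. Alternatives were DESeq2 1.42.0, limma-voom (limma 3.58.1), other scalings, no filter, the block and leaving out libraries.

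The labels do not say what a replicate number marks. Deviations of same-numbered libraries from their group means correlated at 0.345, 0.338, 0.296 and 0.531 across 4086 genes for numbers 1 to 4, all above the 0.1 set as the limit for pairing, so the block is given beside the main comparison. The 6 genes, the lists and the tests were chosen with earlier results of these data known. The genes named were the 6 and the 2 most and 2 least correlated with their mean. Lists of nuclear subunits, assembly factors and cell type markers were not tested, because no table used here pairs the identifiers with symbols, so the labelled tissue was not checked against markers. Sequences and positions of the 6 genes were not used here.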

Additional observations from a re-analysis of the deposited data

Results flagged for a closer look

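Each measure was examined in each group of 4 libraries for a lone extreme value (Dixon's test at 95%). Of 34 such checks 4 found one, and by chance about 1 in 20 would. Given in parentheses is the gap to the nearest library as a share of the group's range. Mt-co2 had 3005 UMIs in untrained replicate 4, apart from 1820 to 1874 in the other untrained libraries (0.954). This is the deepest library, and its Mt-co2 level in CPM was not apart from the others. Mt-co1 had 1872 UMIs in trained replicate 1, apart from 1076 to 1153 in the other trained libraries (0.903). That library's total of 400934 UMIs was itself apart from the other trained totals (0.883). The summed share of the 6 genes in untrained replicate 3, 4.71% of UMIs, lay apart from 2.92% to 3.21% (0.842), and this was the shallowest untrained library.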

How the results depend on the processing

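The log2 fold changes of the 6 genes stayed on the same side of the threshold under all 23 alternatives, with none past it. Those of Mt-cyb, Mt-atp6 and Mt-co2 also kept their direction, at 0.20 to 0.76, 0.13 to 0.74 and 0.08 to 0.49. Those of Mt-co3 lay between -0.083 and 0.33, of Mt-co1 between -0.0018 and 0.33, and of Mt-atp8 between -0.0045 and 0.63, and the highest value of each of the 6 genes was that without untrained replicate 3. Signs near 0 turned for Mt-atp8 without untrained replicate 1 (-0.0045), for Mt-co3 without untrained replicate 4 (-0.016), without trained replicate 3 (-0.083) and with the replicate block without replicate 1 (-0.025), and for Mt-co1 with the block without replicate 4 (-0.0018). Over all genes, 0 called became 6 with no filter, 2 with the replicate block, 1 with the block on corrected counts, 1 with the block in DESeq2, 0 to 2 with 1 library left out (2 without untrained replicate 2), and with the block 0, 3, 8 and 4 without numbers 1 to 4. For the replicate number, 654 genes became 365 to 695 with 1 library left out (411 without untrained replicate 2 and 365 without untrained replicate 4, where fewer genes were tested). There Mt-atp6 also passed without untrained replicate 4 (edgeR adjusted p = 0.0313, 9.59% of all genes called) or trained replicate 4 (0.00477, 10.8% called), and Mt-cyb without trained replicate 4 (0.0160). With no filter 825 of 13048 genes were called (6.32%), among them Mt-cyb, Mt-co1 and Mt-atp6 (edgeR adjusted p of 2.3e-05, 0.0138 and 2.9e-07) and the 3 called with the filter. The summed share rose to 6.39% in untrained and 6.77% in trained libraries on corrected counts, by construction, and was 3.05% to 3.65% and 4.01% to 4.72% with 1 library left out. The log2 ratio of Mt-atp8 to Mt-atp6 turned from -0.18 to 0.15 on corrected counts, 0.047 without untrained replicate 4 and 0.19 without trained replicate 2 (-0.45 to 0.19 with 1 library left out). With the replicate block, as the mean of the differences between same-numbered libraries, it was -0.18, in an exact test that cannot go below 0.125. The other causes were not tested. The limit on the counts bounds what these data show for Mt-cyb and Mt-atp6 and, to a lesser degree, for Mt-co2 and Mt-co1. Low counts bound what these data show for Mt-atp8.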
